A study of Mus musculus with 8 samples.

Results

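The adrenergic receptors, the family through which cells sense noradrenaline, were examined in frontal cortex of mice with and without the mouse counterpart of HAR123. HAR123 is an enhancer, inside an intron of the gene Smg6, whose sequence changed fast on the human lineage. The members were taken by symbol and not by any measured value: Adra1a, Adra1b, Adra1d, Adra2a, Adra2b, Adra2c, Adrb1 and Adrb3, which are 8 of the 55536 genes in the count table. The 2 groups were 4 WT libraries and 4 HAR123-KO libraries of 8-week-old mice. HAR123-KO animals carried a CRISPR-Cas9 deletion of the element made in C57BL/6J embryos. WT littermates were the controls, and the strains had been backcrossed to C57BL/6J. No agent was given to either group. Each library was made from total RNA of bulk tissue after removal of ribosomal RNA, so fewer cells of a type and less RNA per cell cannot be told apart in any value given here. RNA levels say nothing direct about receptor protein.

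Noradrenaline reaches the cortex through axons whose cell bodies lie in the brainstem, mainly in the locus coeruleus, and it is known there for its part in arousal, attention and the switching of behaviour between rules. Its receptors belong to the G protein-coupled family and fall into 3 classes. The α1 receptors couple to Gq and phospholipase C, the α2 receptors couple to Gi and Go, which lower cyclic AMP and open potassium channels, and the β receptors couple to Gs and raise cyclic AMP. The α2 class also sits on noradrenergic endings, where it holds back release.

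The 8 receptors share a short stretch at the inner end of the third membrane-spanning helix, the Asp-Arg-Tyr motif, which takes part in switching the G protein on. The coding sequence around this motif is shown for each receptor because it lets the reader see how alike, and how far apart, the genes are whose reads were counted separately. Each window holds 45 bases read 5′ to 3′ on the coding strand, with the codons of the motif in capitals, from the GENCODE M21 transcripts placed on GRCm38. The order of the windows is chr14:66637926-66637970 (plus strand) for Adra1a, chr11:43835639-43835683 (minus) for Adra1b, chr2:131561584-131561628 (minus) for Adra1d, chr19:54046629-54046673 (plus) for Adra2a, chr2:127363886-127363930 (plus) for Adra2b, chr5:35280309-35280353 (plus) for Adra2c, chr19:56722816-56722860 (plus) for Adrb1 and chr8:27228003-27228047 (minus) for Adrb3.
Adra1a: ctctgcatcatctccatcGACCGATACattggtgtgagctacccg
Adra1b: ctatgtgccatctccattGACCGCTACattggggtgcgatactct
Adra1d: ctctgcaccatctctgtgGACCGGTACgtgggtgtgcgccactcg
Adra2a: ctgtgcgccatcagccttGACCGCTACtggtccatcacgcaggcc
Adra2b: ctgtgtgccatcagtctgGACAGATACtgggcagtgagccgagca
Adra2c: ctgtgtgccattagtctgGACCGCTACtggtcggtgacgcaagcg
Adrb1: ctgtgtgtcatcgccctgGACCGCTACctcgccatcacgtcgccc
Adrb3: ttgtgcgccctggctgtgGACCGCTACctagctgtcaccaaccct

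Each receptor's reading frame held exactly 1 in-frame match to the motif. For Adra2b the frame used was the longest open reading frame of the transcript, which differs from the annotated one. Over the 28 pairs of receptors, the windows were identical at 51.1% to 80.0% of their 45 bases. The highest identity, 36 of 45 bases, was between Adra2a and Adra2c and between Adra2b and Adra2c. The 3 α1 windows matched each other at 71.1% to 77.8%. Over whole transcripts the longest run of bases shared exactly by any pair was 30, between Adrb1 and Adrb3, and the shortest such maximum was 11. Runs of this length are shorter than the sequencing reads.

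The genes lie apart in the genome. In GRCm38 coordinates, Adra1a (ENSMUSG00000045875) spans chr14:66635251-66771168, Adra1b (ENSMUSG00000050541) chr11:43774606-43901210 and Adra1d (ENSMUSG00000027335) chr2:131545850-131562283. The α2 genes are Adra2a (ENSMUSG00000033717) at chr19:54044151-54048982, Adra2b (ENSMUSG00000058620) at chr2:127363208-127367221 and Adra2c (ENSMUSG00000045318) at chr5:35278319-35281763. The β genes are Adrb1 (ENSMUSG00000035283) at chr19:56722199-56733113 and Adrb3 (ENSMUSG00000031489) at chr8:27225776-27250616. In Adra1d, 147 exonic bases overlap the antisense gene Gm14285, which had 23 counts over all libraries. In Adrb3, 839 exonic bases overlap the antisense gene Gm45470, which had 103 counts. How strand was handled at counting is not given in the sources used here, so these 2 receptors' counts may include reads of the antisense gene or have lost reads to it.

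A promoter window of 250 bases before to 50 bases after a transcript start (RefSeq, GRCm38.p6) was at hand for 5 of the 8 receptors, with 2 windows for Adra1b. The dinucleotide CG, which reads the same on both strands, occurred 28 times in 1 Adra1b window, 28 times in Adra2a, 29 times in Adra2b and 28 times in Adrb1, against a median of 7 over 32851 windows of the same length. These 4 counts stand at the 85.8th to 87.1st percentile. The Adra2c window held 7 and the other Adra1b window held 3. Promoters rich in this dinucleotide are common among all genes, and nothing about regulation follows from the count.

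Libraries held 13528251 to 17051001 counts, but 55.1% to 58.0% of it fell on Gm42418, a gene that overlaps ribosomal RNA sequence. Nuclear protein-coding genes received 2786320 to 3732172 counts, and the 8 receptors together 437 to 494 counts per library. Pairs of libraries differed by more than counting noise alone, with a chi-square per degree of freedom of 1.21 to 1.30 in the 12 pairs within a genotype. In the 16 pairs across genotypes it was 1.58 to 1.72. All 8 libraries were kept as separate samples, but such a spread may be technical and does not show that each is a separate animal. Smg6, which hosts the deleted intronic element, had a log2 fold change of 0.05 ± 0.09 (SE, with an adjusted p of 0.964 by DESeq2), and a count over its exons does not report on that deletion. Genotypes were compared with the DESeq2 Wald test over all genes, and the threshold combined an adjusted p under 0.05 with a log2 fold change beyond 0.5 in either direction.

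No receptor differed detectably between the genotypes. Of the 6 receptors with enough counts for an adjusted p, 0 were past the threshold, against 0.298% of the 12758 genes tested (38 genes). With no minimum fold change the count was again 0 of 6, against 1.69% of all genes (215 genes). At an unadjusted DESeq2 p under 0.05 it was 0 of 6, against 8.78% of the same genes. The quasi-likelihood test of edgeR, which kept the same number of receptors, gave 0 of 6 at an adjusted p under 0.05, against 2.28% of its 14503 genes, and 0 at an unadjusted p under 0.05. In 0 of the 8 receptors did the libraries of the genotypes lie fully apart, against 5.95% of the 21765 genes whose mean was 1 normalized count or more. With 6 to 8 members, counts of 0 are near what these background shares give. Of the 6 log2 fold changes, 3 were above 0 and 3 below, with a median of 0.03 (all tested genes: -0.00). The 2 remaining receptors, Adra2b and Adrb3, were too low for an adjusted p, since the DESeq2 filter stopped at a mean of 17.6 normalized counts.

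**Figure D1:**
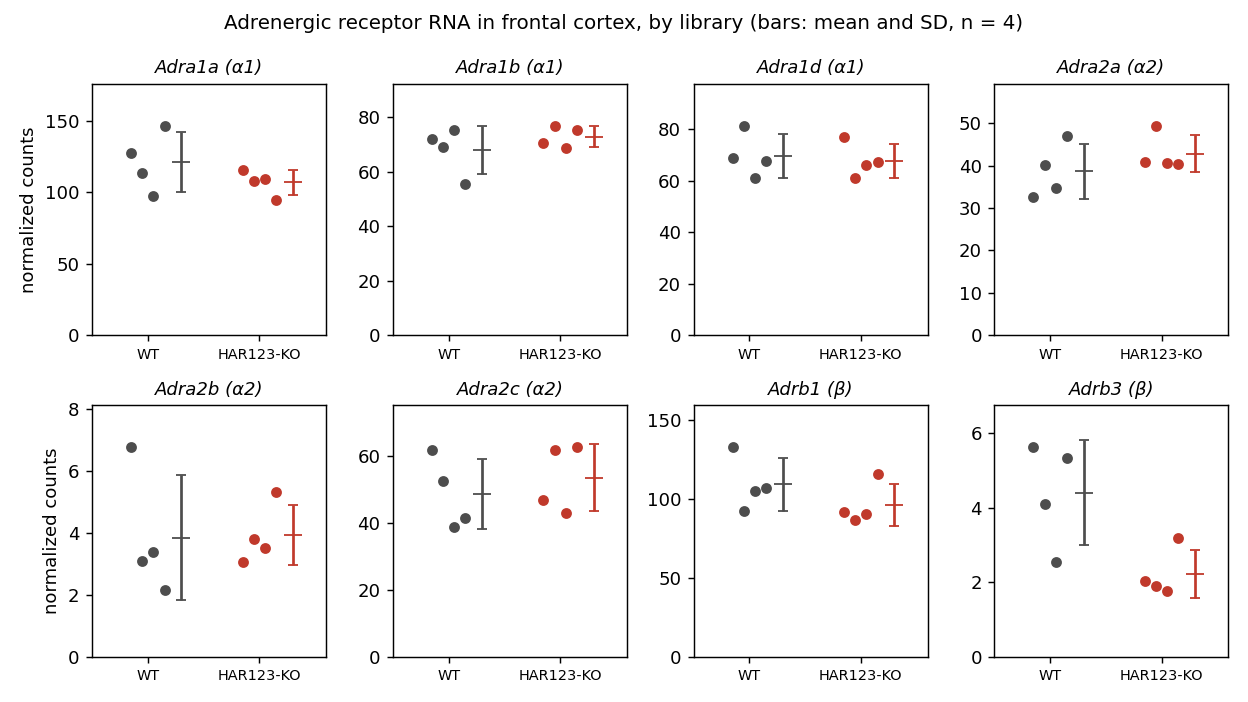
Normalized counts (vertical axis, from 0) of the 8 adrenergic receptors in each of the 4 WT (grey) and 4 HAR123-KO (red) libraries, with the mean and SD of each genotype beside the points. The genotypes overlap in all 8 panels, and the axes of Adra2b and Adrb3 end below 10 normalized counts.

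Values below are normalized counts, raw counts divided by the DESeq2 size factor of the library, in the order of replicates 1 to 4. Among the α1 receptors, Adra1a, which raises intracellular calcium through Gq, had 127, 113, 97.4 and 147 in WT and 116, 107, 109 and 94.7 in HAR123-KO. The highest value was in WT replicate 4 and the lowest in HAR123-KO replicate 4, and 3 of the 4 HAR123-KO values lay inside the WT range. The means were 121 ± 20.9 in WT and 107 ± 8.81 in HAR123-KO libraries (SD, n = 4). The log2 fold change was -0.17 ± 0.13 (SE, with an adjusted p of 0.814 by DESeq2 and 0.575 by edgeR). Its 95% interval ran from -0.42 to 0.08, which is a fold of 0.746 to 1.06.

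Adra1b, a second α1 receptor of cortical neurons, had 72.1, 69.0, 75.4 and 55.6 in WT and 70.6, 77.0, 68.7 and 75.5 in HAR123-KO. WT replicate 4 was the low library, and the other 7 lay within 68.7 to 77.0. The means were 68.0 ± 8.67 and 73.0 ± 3.95 (SD, n = 4), giving a log2 fold change of 0.09 ± 0.16 (SE, with an adjusted p of 0.964 by DESeq2) and an interval of -0.21 to 0.40.

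Adra1d, the α1 receptor with the shortest exon sequence of the 8 genes, had 68.7, 81.3, 61.0 and 67.4 in WT and 76.8, 60.9, 66.0 and 67.0 in HAR123-KO. The library labelled replicate 2 was the highest in WT and the lowest in HAR123-KO. The means were 69.6 ± 8.51 and 67.7 ± 6.65 (SD, n = 4), and the log2 fold change of -0.04 ± 0.16 (SE, with an adjusted p of 0.993 by DESeq2) had an interval of -0.35 to 0.27. The sign of this change depended on single libraries, being 0.05 without WT replicate 2 and 0.01 without HAR123-KO replicate 2.

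Of the α2 receptors, Adra2a serves both as the release-limiting autoreceptor of noradrenergic endings and as a receptor on cortical neurons. It had 32.6, 40.2, 34.7 and 47.1 in WT and 41.0, 49.4, 40.5 and 40.4 in HAR123-KO. HAR123-KO replicate 2 was the highest of the 8 libraries, and the other 3 of its genotype lay inside the WT range. The means were 38.7 ± 6.44 and 42.8 ± 4.42 (SD, n = 4), giving a log2 fold change of 0.15 ± 0.21 (SE, with an adjusted p of 0.949 by DESeq2) and an interval of -0.25 to 0.56.

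Adra2c, the other α2 receptor well known in forebrain, had 61.9, 52.5, 39.0 and 41.7 in WT and 47.1, 61.8, 43.1 and 62.7 in HAR123-KO. Values near 40 and values near 60 occurred in both genotypes. The means were 48.8 ± 10.5 and 53.7 ± 10.04 (SD, n = 4), and the log2 fold change of 0.15 ± 0.19 (SE, with an adjusted p of 0.945 by DESeq2) had an interval of -0.23 to 0.52.

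Adra2b was near the limit of detection, with 31 raw counts over all libraries and 2 to 6 in each. Its normalized counts were 6.76, 3.09, 3.39 and 2.14 in WT and 3.07, 3.80, 3.52 and 5.32 in HAR123-KO. WT replicate 1 was the highest library and WT replicate 4 the lowest, so the WT range contained every HAR123-KO value. The log2 fold change of 0.04 ± 0.69 (SE, DESeq2 unadjusted p = 0.953) had an interval of -1.32 to 1.40, or a fold of 0.401 to 2.64, and its sign turned when single libraries were left out.

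Of the β receptors, Adrb1, which drives cyclic AMP production through Gs and is the target of the beta blockers used for the heart, had 133, 92.7, 105 and 107 in WT and 92.1, 86.5, 90.7 and 116 in HAR123-KO. In 3 of the 4 HAR123-KO libraries it lay below every WT library, while HAR123-KO replicate 4 was second only to WT replicate 1. For HAR123-KO replicate 1 this rested on the size factors, since it and WT replicate 2 each had 90 raw counts. The means were 109 ± 16.9 and 96.3 ± 13.3 (SD, n = 4), giving a log2 fold change of -0.18 ± 0.13 (SE, with an adjusted p of 0.800 by DESeq2; edgeR adjusted p = 0.537) and an interval of -0.45 to 0.08. Without HAR123-KO replicate 4 the DESeq2 adjusted p of Adrb1 was 0.496, the smallest adjusted p of any receptor over the 15 fits.

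Adrb3, the β receptor known chiefly from fat tissue, had 26 raw counts in all, 2 to 5 per library. Its normalized counts were 5.63, 4.12, 2.54 and 5.35 in WT and 2.05, 1.90, 1.76 and 3.19 in HAR123-KO. The genotypes overlapped through WT replicate 3 and HAR123-KO replicate 4. The means were 4.41 ± 1.41 and 2.23 ± 0.654 (SD, n = 4), and the log2 fold change of -0.98 ± 0.78 (SE, DESeq2 unadjusted p = 0.207) had an interval of -2.50 to 0.54, or a fold of 0.177 to 1.46. This depth could not show a difference of such size, and the counts of Adrb3 may hold antisense reads.

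The intervals show what this depth could resolve. For Adra1a, Adra1b, Adra1d and Adrb1 the whole 95% interval lay inside the limit of 0.5 on the log2 scale in both directions. For Adra2a and Adra2c it reached slightly past that limit on the upper side, and for Adra2b and Adrb3 it was too wide to say more than that the counts were low. The median SE of the 6 receptors with an adjusted p was 0.157. The chi-square per degree of freedom within genotypes, which is 1 on average for counting noise alone, was 2.22 for Adra1a, 2.10 for Adra2c and 2.09 for Adrb1 and ran from 0.334 to 0.870 for the other 5, values given without a test.

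**Figure D2:**
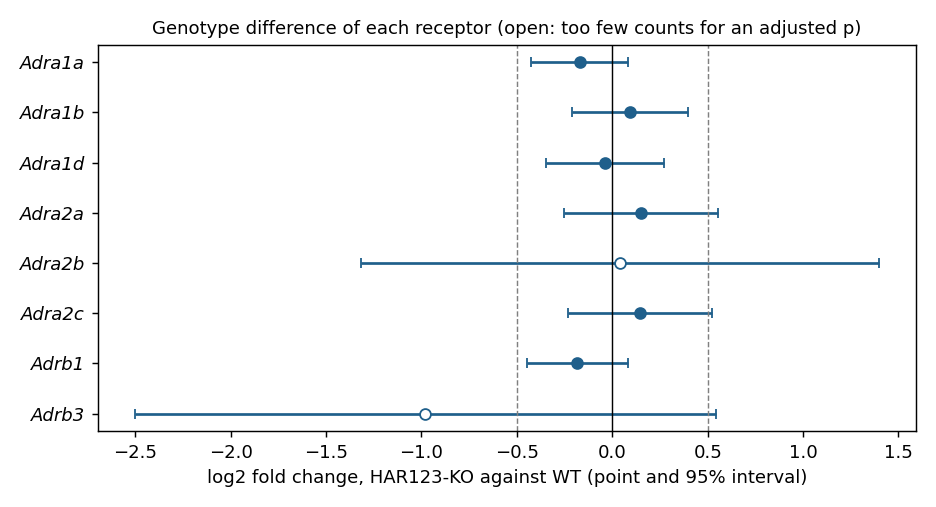
Log2 fold change of each receptor in HAR123-KO against WT (horizontal axis) with its 95% interval from the DESeq2 Wald test, 4 libraries a genotype. Dashed lines mark 0.5 in each direction, open points are the 2 receptors with no adjusted p, and all 8 intervals contain 0.

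Receptors were compared with each other on normalized counts per kilobase of exon, which takes gene length out of the level. On this scale the order was Adra1d (36.1 ± 3.76, SD over 8 libraries), Adrb1 (30.4 ± 4.64), Adra1b (20.8 ± 2.002), Adra2c (14.9 ± 2.87), Adra1a (13.1 ± 1.91) and Adra2a (8.43 ± 1.15), with Adrb3 (0.983 ± 0.458) and Adra2b (0.968 ± 0.365) far below. Each receptor was set against the next one down in the same library. Adra1d was above Adrb1 in 7 of 8 libraries and Adra2c above Adra1a in 7 of 8, and in both pairs the ranges over libraries overlapped. Adrb1 was above Adra1b, Adra1b above Adra2c, Adra1a above Adra2a and Adra2a above Adrb3 in 8 of 8. Only the pair of Adra1b and Adra2c among these 4 had overlapping ranges. Adrb3 was above Adra2b in 2 of 8 libraries, so these 2 have no order. Both genotypes gave the same order of means for the first 6 receptors. Among 22014 nuclear protein-coding genes, the mean level of Adra1d stood at the 80.9th percentile, that of Adra2a at the 54.5th and that of Adra2b at the 36.2nd.

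The place of Adra1a depended on which length it was divided by. Its annotated exons cover 8728 bases in all, and its longest protein-coding transcript 4282. Divided by that transcript, a choice made after the data were seen, Adra1a had 26.6 ± 3.901 normalized counts per kilobase (SD, n = 8) and moved from place 5 to place 3, above Adra1b at 21.2 ± 2.03. Before any division by length it had the most normalized counts of the 8 genes. Adra1d and Adrb1 held the first places by either length.

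**Figure D3:**
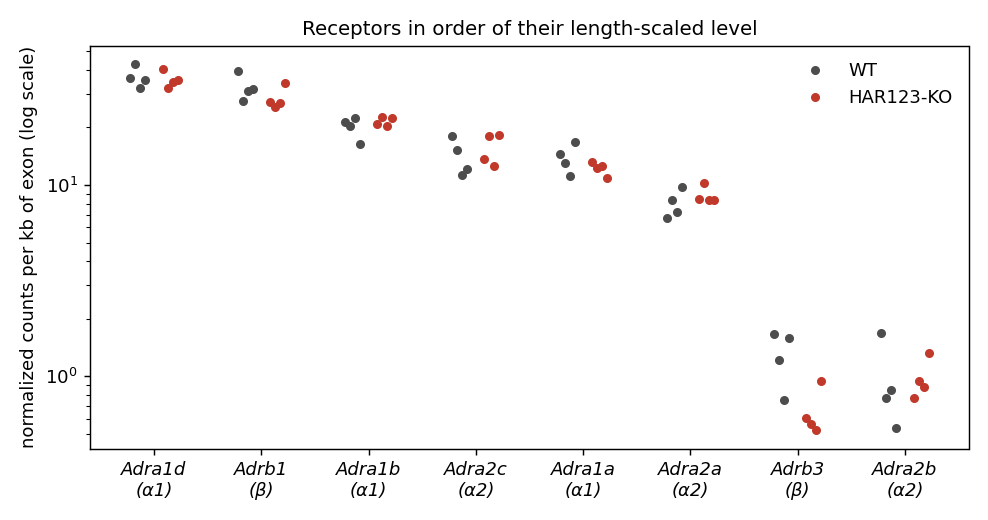
Level of each receptor in normalized counts per kilobase of exon (vertical axis, log scale) in the 4 WT (grey) and 4 HAR123-KO (red) libraries, with receptors ordered by their mean over 8 libraries. The first 6 receptors lie between 6.76 and 42.8 and the last 2 between 0.522 and 1.68.

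Summed over these 8 receptors, the level was 127 ± 9.49 normalized counts per kilobase in WT and 124.0 ± 6.19 in HAR123-KO libraries (SD, n = 4), with overlapping genotypes. The α1 receptors made up 55.5% ± 3.02 of the sum in WT and 56.1% ± 3.32 in HAR123-KO. The α2 share was 18.1% ± 1.10 in WT and 20.5% ± 2.56 in HAR123-KO, and the share of Adrb1 and Adrb3 was 26.4% ± 3.04 and 23.4% ± 2.37 (SD, n = 4). All 3 shares overlapped between the genotypes, and they are shares of the 8 genes listed, not of every adrenergic receptor.

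Some genes followed a receptor closely across the 8 libraries. Likeness was the Pearson correlation of log2 normalized counts among 8806 protein-coding genes with a mean of at least 50, computed for the 5 receptors that reached that mean, and it is a description over libraries that share a size factor each. The closest genes were Mrpl45 (r = 0.941), Nedd8 (0.940) and Prkaca (0.919) for Adra1a, Rps6kb1 (0.987) and Fgf14 (0.943) for Adra1b, and Fbxo22 (0.938), Zbtb45 (0.929) and Esf1 (0.925) for Adra1d. For Adra2c they were Kif16b (0.985), Fam69b (0.936) and Arsb (0.924), and for Adrb1 Adgrb2 (0.966), Kcnj11 (0.961) and Sel1l (0.931). They were picked as the highest among all genes compared and carry no test.

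Genes that make, carry and break down noradrenaline, and genes that act downstream of its receptors, were read from the same fit. Of 58 such genes, 54 had a mean of 1 normalized count or more and 49 an adjusted p. At a DESeq2 adjusted p under 0.05, 2 were higher in HAR123-KO, 1 was lower and 46 did not pass, against 1.69% of all genes tested. None of the 3 changed by more than 0.5 on the log2 scale (0 of 49, against 0.298% of all genes). By edgeR 2 of 52 were higher and 2 lower, against 2.28% of its genes. The median log2 fold change of the 49 was -0.02.

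Adcy5, an adenylyl cyclase, had 1319.5, 1294, 1273 and 1341.5 normalized counts in WT and 1587, 1601, 1586 and 1621 in HAR123-KO. All 4 HAR123-KO libraries were above all WT libraries, and the gene rose by 0.29 ± 0.04 on the log2 scale (SE, with an adjusted p of 8.02e-13 by DESeq2), an adjusted p that stayed under 0.05 in 15 of 15 fits. Adcy5 is the main cyclase of striatal projection neurons, and the 10 listed markers of those cells summed to 4337 to 4492 normalized counts in WT and 5758 to 5945 in HAR123-KO. Of these 10 markers 8 were higher in HAR123-KO at a DESeq2 adjusted p under 0.05, against 1.69% of all genes in either direction. Among the 8 were Ppp1r1b, Rgs9, Pde10a, Drd1, Drd2, Adora2a and Penk. By edgeR 10 of 10 markers were higher, against 2.28% of its genes in either direction. Of the markers 0 were lower, and none was at 0. Their part in the difference of Adcy5 was not tested.

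Akap5, a scaffold that tethers protein kinase A and phosphatases near receptors at the synapse, had 689, 664, 713 and 754 in WT and 800, 865, 854 and 860 in HAR123-KO. The genotypes lay apart, and the gene rose by 0.26 ± 0.05 (SE, with an adjusted p of 2.95e-05 by DESeq2), with an adjusted p under 0.05 in 14 of 15 fits. The same striatal markers moved with it, and their part was not tested.

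Gnao1, the alpha subunit of Go that works with the α2 receptors, had 2656, 2716, 2721 and 2608 in WT and 2515, 2421, 2455 and 2527 in HAR123-KO. All 4 HAR123-KO libraries were below all WT libraries, with a log2 fold change of -0.11 ± 0.03 (SE, with an adjusted p of 0.0157 by DESeq2; edgeR adjusted p = 0.0414). The call was lost when any of 5 libraries was left out, although the log2 fold change stayed between -0.12 and -0.10 over all 8 omissions. The DESeq2 adjusted p was 0.0831, 0.177 and 0.0940 without WT replicates 1, 2 and 3, and 0.191 and 0.138 without HAR123-KO replicates 2 and 3. The 5 listed markers of cortical excitatory neurons summed to 5020 to 5169 in WT and 4550 to 4881 in HAR123-KO. At a DESeq2 adjusted p under 0.05, 1 of 5 was lower (Slc17a7), against 1.69% of all genes in either direction. None was at 0, and the part of these markers was not tested.

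**Figure D4:**
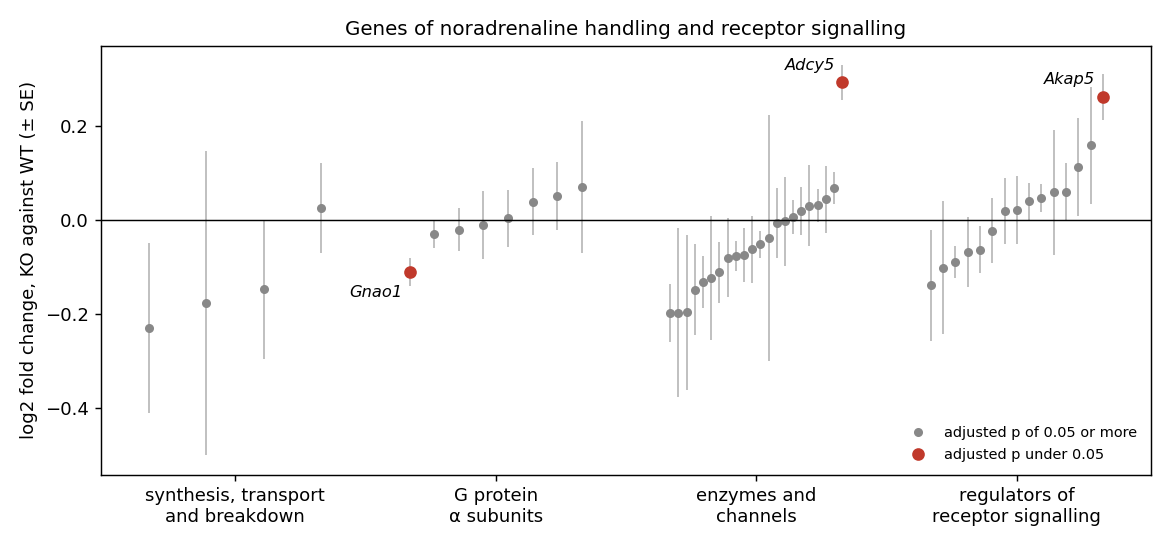
Log2 fold change with SE, HAR123-KO against WT, of the 49 pathway genes with a DESeq2 adjusted p, grouped by role and ordered by size within each group. Red points have an adjusted p under 0.05 and are Gnao1 (-0.11), Adcy5 (0.29) and Akap5 (0.26), and the lowest of the other 46 is Maob at -0.23.

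Among the genes of synthesis, transport and breakdown, 4 of 11 had enough counts for an adjusted p and 0 passed. Maob and Maoa, the enzymes that oxidize noradrenaline, had log2 fold changes of -0.23 ± 0.18 (SE, with an adjusted p of 0.834 by DESeq2) and -0.15 ± 0.15 (adjusted p = 0.904). Slc22a3, a low-affinity carrier of monoamines, had 10.1, 11.3, 12.7 and 7.49 in WT and 17.4, 10.5, 17.6 and 21.3 in HAR123-KO. Its log2 fold change was 0.66 ± 0.37 (SE, DESeq2 unadjusted p = 0.0727, edgeR adjusted p = 0.351), and the genotypes overlapped through HAR123-KO replicate 2.

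The markers that define a noradrenergic neuron were all but absent. Named here after their values were seen, Dbh, which makes noradrenaline from dopamine, had 3 raw counts in all 8 libraries together, and Slc6a2, the noradrenaline transporter, had 1. Phox2a, a factor that sets the noradrenergic identity, was at 0 in every library. The enzymes that noradrenaline shares with dopamine were low but present: Th, the rate-limiting enzyme of both, had 56 raw counts in all (mean 6.90 normalized counts) and Ddc, the next enzyme, had 83 (mean 10.2). The listed markers of noradrenergic neurons summed to 0 in the WT libraries and 0 to 2.13 normalized counts in the HAR123-KO libraries.

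Of the 8 G protein alpha subunits, 7 did not pass. Gnas, the subunit of Gs, had a log2 fold change of -0.03 ± 0.03 (SE, with an adjusted p of 0.902 by DESeq2) and Gnaz, a relative of Gi, 0.05 ± 0.07 (adjusted p = 0.953). Of 22 enzymes and channels with an adjusted p, 21 did not pass. Kcnj9, a subunit of the potassium channels that Gi and Go open, had 485, 524, 562 and 532 in WT and 490, 468, 431 and 450 in HAR123-KO. Its log2 fold change was -0.20 ± 0.06 (SE), and its adjusted p was 0.0653 with DESeq2 and 0.0164 with edgeR, so that by edgeR it was under 0.05 with a change smaller than 0.5. The HAR123-KO libraries were lower apart from replicate 1, which was above the lowest WT library. Adcy2, a cyclase of cortex, had -0.13 ± 0.05 (SE, with an adjusted p of 0.357 by DESeq2).

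Of the 15 regulators of receptor signalling, 14 did not pass. Rgs4, which speeds the switching off of Gi and Gq, had 1817, 1829, 1779 and 1783 in WT and 1694, 1686, 1719 and 1672 in HAR123-KO. The genotypes did not overlap, but the log2 fold change of -0.09 ± 0.03 (SE) had a DESeq2 adjusted p of 0.227. Ppp1r9b, the spinophilin scaffold that binds α2 receptors, had 0.05 ± 0.03 (SE, adjusted p = 0.751).

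Some markers of other cells and of neighbouring tissue also differed between the genotypes. They were counted at a DESeq2 adjusted p under 0.05, with the edgeR count given where it is different. Over all genes tested, the share called in either direction was 1.69% by DESeq2 and 2.28% by edgeR. The 9 choroid plexus markers summed to 27.0 to 43.2 normalized counts in WT and 115 to 135 in HAR123-KO, with 1 of 1 marker tested by DESeq2 higher (Kl), 4 of 4 tested by edgeR higher, and none at 0. The 7 oligodendrocyte markers summed to 8901 to 9089 and 9893 to 10074, with 3 of 7 higher. Deep-layer markers summed to 826 to 935 and 993 to 1022, with 0 of 6 called by DESeq2 and 2 of 6 higher by edgeR. On the lower side in HAR123-KO, the claustrum and layer 6b list (6 of its 7 symbols had a row) summed to 901 to 1030 in WT and 695 to 762, with 2 of 5 tested lower. Upper-layer markers summed to 2957 to 3090 and 2666 to 2861 with 1 of 6 lower, astrocyte markers to 23487 to 24223 and 21884 to 22463 with 3 of 9 lower, and endothelial markers to 323 to 353 and 228 to 258 with 1 of 6 lower. Interneuron (2261 to 2391 and 2326 to 2415), microglia (947 to 1017 and 914 to 970) and mural (268 to 333 and 324 to 358) sums overlapped between the genotypes, with 0 markers called by DESeq2 or edgeR. Apart from the noradrenergic list, no list had a marker at 0 in all libraries. The part of any of these lists in the receptor values was not tested.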

How the data were processed

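RNA-seq of frontal cortex covered 4 WT and 4 HAR123-KO libraries, grouped by their titles. The deposited table holds raw counts of reads over each gene's exons, which the authors obtained with STAR 2.5.2b on GRCm38 and featureCounts (Subread). Handling of strand and of reads with several matches is not given in the sources used here, although the library kit was directional. Symbols, exon lengths and transcripts came from GENCODE M21, and 0 columns of per-sample values were left unused. Per-library depth was 13528251 to 17051001 counts, most of it ribosomal, and PCR copies carried no molecular tags.

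DESeq2 1.42.0 in R 4.3.3 was fitted to all genes with genotype as the only term (median-of-ratios size factors, Benjamini-Hochberg adjustment after independent filtering at 0.1). The alternatives were edgeR 4.0.16 (quasi-likelihood, TMM), 2 other scalings, 2 other filters, 2 other thresholds, a block for the replicate number, omission of each library in turn, and other lengths. Intervals are 95% Wald intervals. Code for the fits was tested on simulated data. The labels do not say that each library is a separate animal, so p-values measure the spread between these libraries, which may be technical.

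Named were the 8 receptors, every pathway gene with an adjusted p under 0.05 plus the 3 with the smallest unadjusted p per role, the 3 genes most like each receptor averaging 50 or more normalized counts (pseudocount 1), and marker genes that moved. The receptors, the pathway list, the 13 marker lists and the tests were chosen with earlier results of these data known. A few genes that these rules and lists take in are not reported here.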

Additional observations from a re-analysis of the deposited data

Results flagged for a closer look

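Adra2a in HAR123-KO was set apart by 1 library. Replicate 2 had 49.4 normalized counts, while the other 3 HAR123-KO libraries lay between 40.4 and 41.0, so the gap to the nearest library was 0.940 of the whole range, above Dixon's 95% critical value for 4 values. This was the only one of 40 groups of 4 values examined (receptors, and named pathway genes, by genotype) that passed the limit, where chance gives about 2. The highest WT library of Adra2a, replicate 4, had 47.1.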

How the results depend on the processing

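The number of receptors past the threshold was 0 under every alternative run. Of 108 receptor fold changes recomputed, 102 kept their direction and their side of the threshold, 6 changed sign and 0 passed. The 6 came from leaving out single libraries, over which the log2 fold change of Adra1d ran from -0.103 to 0.046 and that of Adra2b from -0.15 to 0.43. Leaving out single libraries also moved the size of the others, from -0.27 (without WT replicate 3) to -0.07 (without WT replicate 4) for Adra1a, from 0.01 (without WT replicate 4) to 0.15 (without WT replicate 3) for Adra1b, from 0.08 (without HAR123-KO replicate 2) to 0.26 (without WT replicate 4) for Adra2a, from 0.04 (without WT replicate 3) to 0.28 (without WT replicate 1) for Adra2c, from -0.28 (without HAR123-KO replicate 4) to -0.08 (without WT replicate 1) for Adrb1, and from -1.20 to -0.84 for Adrb3. The number of pathway genes past the threshold was 0, and 3 with an adjusted p under 0.05 and no minimum fold change. Of 168 fold changes of named pathway genes, 160 kept their direction and call, 7 lost the call (Gnao1 in 6 fits and Akap5 in 1) and 1 gained it (Kcnj9 with edgeR). Leaving out single libraries moved Maoa from -0.26 (without HAR123-KO replicate 3) to -0.06 (without HAR123-KO replicate 4), Maob from -0.33 (without WT replicate 3) to -0.13 (without WT replicate 2), Gnas from -0.04 to -0.02, Gnaz from 0.02 to 0.08 and Ppp1r9b from 0.03 to 0.06, none of them called. With the replicate block, 0 receptors and 22 genes in all had an adjusted p under 0.05, and the DESeq2 adjusted p was 0.796 for Akap5, while Gnao1 also missed the limit. Libraries with the same number did not deviate together (correlations of -0.02 to 0.02, with 1 of 4 WT libraries closest to its own number), so the numbers do not pair the samples. Over all 8 libraries the α1, α2 and β shares were 55.8%, 19.3% and 24.9%, and they were 55.7%, 21.1% and 23.3% without division by length and 58.3%, 16.8% and 24.9% with transcript length. Depth limits Adra2b and Adrb3, with 31 and 26 counts in all.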
